A study of Mus musculus with 5 samples.

Results

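Wide initiation zones are regions of 10 kb or more in which the authors called an excess of short nascent DNA strands in mouse embryonic stem cells. They were chosen by width alone, from the authors' deposited list of zones: every zone on chromosomes 1 to 19 that was at least 10000 bp wide was taken. This gave 2605 of the 35138 autosomal zones and of 35512 zones in all. They are set beside the 29832 autosomal zones of at least 1000 bp and under 10 kb, called comparison zones here. The other 2701 autosomal zones were under 1000 bp. Chromosomes X and Y together carried 1 zone of 10 kb or more, which is not described.

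The cells were CGR8, an established line of mouse embryonic stem cells, grown in serum with leukaemia inhibitory factor, which keeps them pluripotent, and with no feeder cells. The series has 5 samples. Nascent strands of 0.5 to 2 kb came from 3 cultures and were digested with lambda exonuclease, which spares strands that still carry an RNA primer. The other 2 samples were controls, sonicated genomic DNA and strands stripped of their primers by RNase A. Neither control was analysed here, and the labels do not say whether they entered the calling of the zones. All groups share 1 cell line, so nothing here is known of other lines.

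The list combines the 3 cultures and gives a start and an end for each zone, with no read number. It is therefore 1 sample, and no test between samples could be made. The spread between cultures and the depth behind a zone are unknown. Values per autosome are given as mean ± SD over the 19 autosomes, with the number of autosomes in each direction. Autosomes of 1 pooled list are not biological replicates. Positions are in build mm9 and count from 1. Genes and base sequence at the zones were not analysed here.

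In mammalian cells DNA replication starts at many origins, of which each cell uses only some in a given cycle. Neighbouring origins are often grouped into zones, and within a zone the start can differ from cell to cell. Zones rich in origins are known to lie mostly in gene-rich, early replicating chromatin. The strands purified here were much shorter than a wide zone.

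The width of the zones was described first, as this is the measure that chose them. Wide zones had a median width of 13.6 kb, with quartiles at 11.4 and 17.8 kb, so most were close to the limit. Of the 2605 zones, 60.7% were under 15 kb, 475 (18.2%) were 20 kb or more, 117 were 30 kb or more, and 6 were 50 kb or more. The longest reached 81 kb. The median comparison zone was 2600 bp, and its quartiles were 1600 and 4200 bp. Wide zones covered 41.2 Mb, which was 1.71% of the 2410 Mb between the first and last zones of the autosomes. They made up 29.6% of all autosomal sequence inside zones.

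The limit of 10 kb did not fall at a step in the list. Zones of exactly 9800 bp, just under it, numbered 97, and zones of exactly 10000 bp numbered 106. The former had a median of 18 other zones within 250 kb, and the latter a median of 20. A zone within 10 kb was found for 79.4% of the former and for 75.5% of the latter. The values on either side of the limit were close.

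How wide zones are shared out among the autosomes was compared with the comparison zones. Wide zones were much more uneven. Density of wide zones was 1.10 ± 0.71 per Mb (SD, n = 19 autosomes), from 0.21 on chromosome 3 to 2.94 on chromosome 11, which is a 14.2-fold range. Density of comparison zones was 12.5 ± 2.49 per Mb, from 8.69 on chromosome 14 to 18.4 on chromosome 11, a 2.12-fold range. The SD was 64.4% of the mean for wide zones and 19.97% for comparison zones.

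Chromosome 11 alone held 349 wide zones, 13.4% of all of them, against 7.34% of the comparison zones. Chromosome 17 came next by density, with 1.95 per Mb (179 zones), followed by chromosome 4 with 1.73 (264 zones), chromosome 15 with 1.60 (160 zones) and chromosome 19 with 1.58 (92 zones). At the low end stood chromosome 3 with 32 wide zones in 155.0 Mb and chromosome 13 with 34 in 116.9 Mb. Chromosomes 14 and 18 followed with 46 and 36 wide zones. The 6 autosomes with most wide zones held 56.8% of them and 43.0% of the comparison zones. The 6 autosomes with fewest held 272 wide zones, 10.4% of the total, and 23.3% of the comparison zones.

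**Figure D1:**
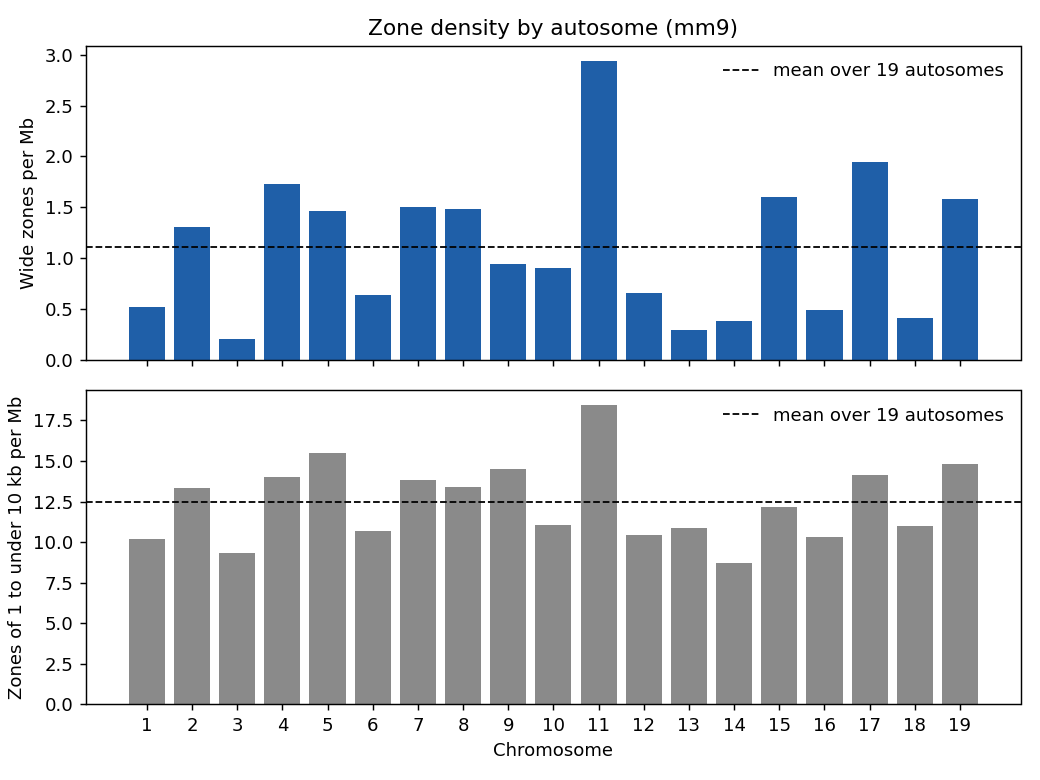
Zones per Mb on each of the 19 autosomes in the pooled list, for zones of 10 kb or more (upper bars) and zones from 1000 bp to under 10 kb (lower bars), with the mean over autosomes as a dashed line. Wide zones run from 0.21 per Mb on chromosome 3 to 2.94 on chromosome 11, while comparison zones stay between 8.69 and 18.4.

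Autosomes with more comparison zones had disproportionately more wide ones. A line through the 19 autosomes on log2 scales had a slope of 3.28 ± 0.43 (SE), where a slope of 1 would mean that both classes grew in the same proportion. Chromosome 15 lay highest above this line, by 0.88 on the log2 scale, and chromosome 13 lay lowest, at -1.03. Wide zones accordingly made up 13.8% of the zones of at least 1000 bp on chromosome 11, 12.1% on chromosome 17 and 11.6% on chromosome 15. The share was 2.17% on chromosome 3 and 2.61% on chromosome 13. Over the 19 autosomes the densities of the classes correlated at Pearson's r = 0.90 (Spearman's rho = 0.83), and at r = 0.84 without chromosomes 11 and 14. These points share 1 pooled library and are given as a description.

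Chromosomes rich in genes were also those rich in wide zones. Wide zones per Mb and protein-coding genes per Mb correlated over the 19 autosomes at r = 0.80 (rho = 0.80), close to the r = 0.81 (rho = 0.84) of comparison zones. Without chromosomes 7 and 11 the value for wide zones was r = 0.75. The share of wide zones among zones of at least 1000 bp correlated with gene density at r = 0.73 (rho = 0.77). Gene numbers were taken per chromosome from RefSeq of build GRCm38.p6, so only the chromosome of a gene was used. Where wide zones lie with respect to single genes was not analysed here.

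The median width of wide zones per autosome was 13384 ± 733 bp, with chromosome 13 lowest (11400 bp) and chromosome 10 highest (14600 bp). Every zone in this class is at least 10 kb wide by the rule, which limits how far such medians can differ. The share of zone-covered sequence lying in wide zones was 27.0% ± 9.24, from 11.5% on chromosome 3 to 40.9% on chromosome 11.

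Of the 10 widest zones of the list, 8 had another zone of 10 kb or more within 7.4 kb of an edge. The exceptions were the second and the fifth. This distance of 7.4 kb was that of the widest zone itself. For the zones ranked 11 to 15 by width, the nearest wide zone was 17.6 to 78.6 kb away. Of the 117 zones of 30 kb or more, 50.4% had a wide zone as immediate neighbour, against 40.04% of all wide zones. The widest, at chr11:118336001-118417000, had a zone of 12 kb at 7.4 kb on its higher-coordinate side and one of 2.6 kb at 10.8 kb on the other. The zone at chr17:27427001-27488200 (61.2 kb) had 40 other zones within 250 kb, the most among the 10, and a zone of 19 kb lay 4 kb from it. The zone at chr10:80745601-80801600 (56 kb) stood between zones of 14.4 and 35 kb, at 0.8 and 1 kb.

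The sixth, chr19:7202601-7257400 (54.8 kb), lay between zones of 29 and 10.4 kb. The seventh, chr11:120083401-120131200 (47.8 kb), had a zone of 25.2 kb at 0.8 kb. The eighth, chr10:79606401-79653800 (47.4 kb), had one of 26.8 kb at 3.4 kb. These 3 zones were each separated from a wide neighbour by less than 5 kb. The ninth, chr12:113876801-113923800 (47 kb), stood between zones of 31.8 and 15.4 kb. The tenth, chr4:148302801-148349400 (46.6 kb), had a zone of 32.4 kb at 1 kb on one side and an empty stretch of 86.8 kb on the other.

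The exceptions had narrow neighbours. The zone at chr1:90122201-90177400 (55.2 kb) had only 5 other zones within 250 kb. It was 215.6 and 59.8 kb away from its neighbours, of 2.6 and 1.6 kb, and 799.4 kb from the nearest wide zone. The zone at chr11:3023401-3100200 (76.8 kb) had 8 others within 250 kb and its nearest wide zone at 83.4 kb. It was the first zone of its chromosome in the list, so its neighbours were counted on 1 side only.

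On the autosomes not yet named, the widest zone was between 23.8 and 46.2 kb. Chromosome 15 had one of 46.2 kb at chr15:78497601-78543800, and chromosome 8 one of 44.6 kb at chr8:123069201-123113800. Zones of 41 kb were the widest on chromosome 2 (chr2:92198001-92239000), chromosome 9 (chr9:110523601-110564600) and chromosome 14 (chr14:31941601-31982600). Chromosome 5 had one of 38.8 kb at chr5:139873601-139912400, chromosome 3 one of 37.8 kb at chr3:89007001-89044800, and chromosome 7 one of 37.4 kb at chr7:52954401-52991800. The remaining ones were 34.2 kb on chromosome 6 (chr6:29380201-29414400), 32 kb on chromosome 13 (chr13:55559201-55591200), 27.6 kb on chromosome 16 (chr16:32657801-32685400) and 23.8 kb on chromosome 18 (chr18:60853601-60877400). With 9 to 32 other zones within 250 kb, none of these 12 zones stood alone.

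The distance to the nearest zone, counted from edge to edge, was compared between the classes. Wide zones lay closer to their neighbours: the median distance was 2200 bp (quartiles 1000 and 7000 bp) for wide zones and 12200 bp (quartiles 3800 and 32200 bp) for comparison zones. Another zone lay within 10 kb of 2158 wide zones (82.8%) and of 13498 comparison zones (45.2%). Among all autosomal zones this share was 46.6%. Per autosome it was 79.3% ± 8.09 for wide and 43.8% ± 7.86 for comparison zones (SD, n = 19). The difference was 35.5 ± 6.02 percentage points, from 26.4 on chromosome 13 to 48.9 on chromosome 10, and was above 0 on all 19 autosomes. Against comparison zones of 5 to 10 kb only it was 12.8 ± 5.14 percentage points, again above 0 on all 19.

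The excess of wide zones was in the shortest distances. A zone lay less than 2 kb away from 47.4% of wide zones and from 15.8% of comparison zones. For comparison zones of 5 to 10 kb only, this share was 31.9%. Between 5 and 10 kb the shares were alike, 15.2% and 15.3%. The shortest distance in the list, 800 bp, was found beside 461 wide zones (17.7%) and 1518 comparison zones (5.09%). Zones this close are separate in the list but would be single wider zones under a longer joining distance. With zones under 1 kb apart joined, there were 2804 wide zones in place of 2605, and with zones under 2 kb apart joined, 3070. The difference in the share with a zone within 10 kb was then 34.8 and 30.2 percentage points, above 0 on all 19 autosomes in both cases.

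No wide zone was isolated. The farthest that any wide zone stood from its nearest neighbour was 89 kb, whereas 1734 comparison zones (5.81%) had no zone within 100 kb. Most of these were narrow: 1151 were zones of 1 to 2 kb (11.8% of that width). Among comparison zones of 5 to 10 kb only 34 (0.60%) had none, so isolation was rare there too. Every wide zone had at least 7 others within 500 kb. Of the comparison zones, 1692 (5.67%) had 5 or fewer.

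The number of zones in the wider surroundings was compared next. Wide zones had a median of 22 other zones within 250 kb of their edges (quartiles 17 and 26), and comparison zones had a median of 12 (quartiles 7 and 18). Means per autosome were 20.6 ± 2.76 and 12.5 ± 2.57 zones. The difference was 8.09 ± 1.90 zones, above 0 on all 19 autosomes, from 4.98 on chromosome 11, where comparison zones too are crowded, to 13.4 on chromosome 10. Against comparison zones of 5 to 10 kb only the difference was 3.35 ± 1.29 zones, again on all 19. Distances were counted from the edges, so a zone's own width takes no room from its surroundings. Wide zones do take room in the surroundings of other zones, and how far this moves the difference was not tested.

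The difference was smaller within the same region. In the 570 windows of 1 Mb that held zones of both classes, windows cut by the end of a zone span included, wide zones had 17.96 ± 2.05 zones within 250 kb and comparison zones of the same windows had 16.04 ± 2.07. The difference within windows was 1.92 ± 0.60 zones and remained above 0 on all 19 autosomes, from 0.99 on chromosome 9 to 3.00 on chromosome 3. It was 1.02 ± 0.55 zones against comparison zones of 5 to 10 kb only, 1.02 ± 0.32 in windows of 500 kb and 0.66 ± 0.20 in windows of 250 kb, above 0 on all 19 in each case.

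The surroundings changed gradually with width, and the number of zones within 250 kb levelled off above 10 kb. The median number of zones within 250 kb was 8 for zones of 1 to 2 kb, 12 for 2 to 5 kb and 18 for 5 to 10 kb. It was 21 for zones of 10 to 15 kb, 22 for 15 to 20 kb, 23 for 20 to 30 kb and 24 for 30 kb or more. Across zones, width and this number had a Spearman's rho of 0.43 among comparison zones and 0.12 among wide zones. The share with a zone within 10 kb went on from 80.1% at 10 to 12 kb to 91.5% at 30 kb or more. Between the same classes the share with a wide zone as immediate neighbour went from 35.3% to 50.4%. Zones of 1 list that lie near each other share their surroundings, so these values are a description.

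**Figure D2:**
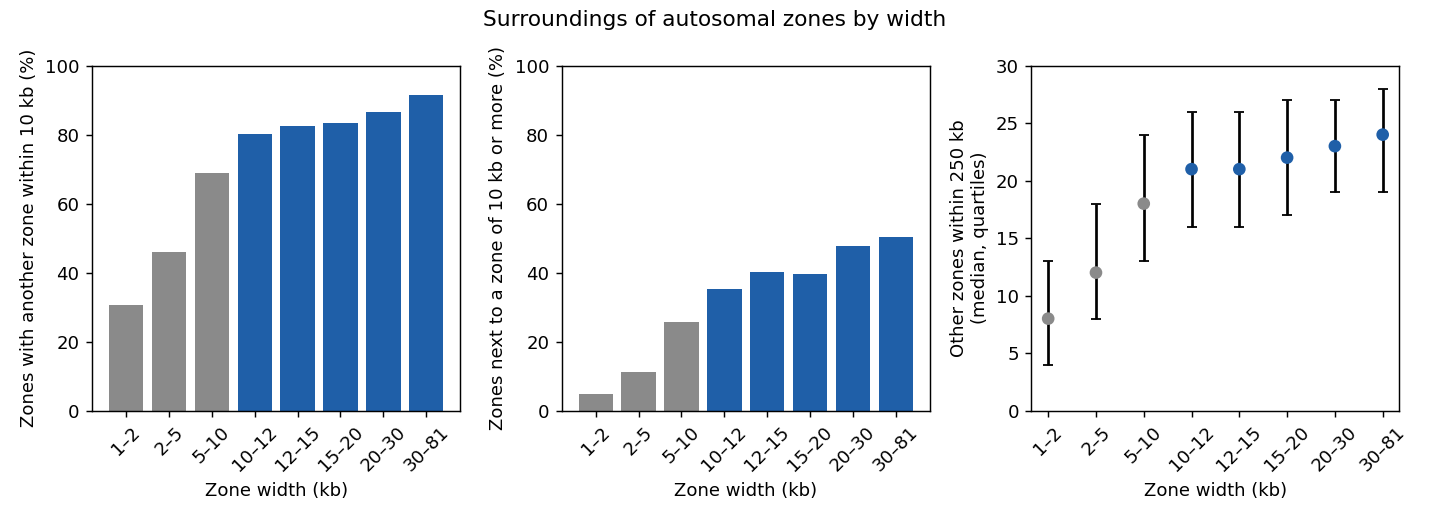
Surroundings of autosomal zones by width class (kb): share with another zone within 10 kb, share next to a zone of 10 kb or more, and number of other zones within 250 kb (point, median; bars, quartiles), with wide classes in blue and comparison classes in grey. All 3 measures are lowest in the narrowest class and highest in the widest, and the median number nearby goes from 8 to 24.

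How far the dense surroundings reach was read from the share of flanking sequence covered by other zones. Around wide zones this share was highest between 5 and 10 kb from the edge, at 37.0% ± 7.60 (SD, n = 19 autosomes), against 12.5% ± 4.33 around comparison zones. It then fell off with distance, to 28.3% ± 8.84 at 50 to 100 kb, 21.4% ± 8.08 at 250 to 500 kb and 14.3% ± 6.16 at 1 to 2 Mb. Around comparison zones it was 5.79% ± 2.17 at 0.8 to 2 kb, 12.9% ± 4.62 at 10 to 25 kb, where it was highest, and 8.75% ± 3.80 at 1 to 2 Mb. The ratio of the means went down from 3.43 at 0.8 to 2 kb to 1.63 at 1 to 2 Mb. In each of the 10 distance classes the share was higher around wide zones on all 19 autosomes. Zone cover around wide zones thus lay above that around comparison zones out to 2 Mb, the farthest distance examined.

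**Figure D3:**
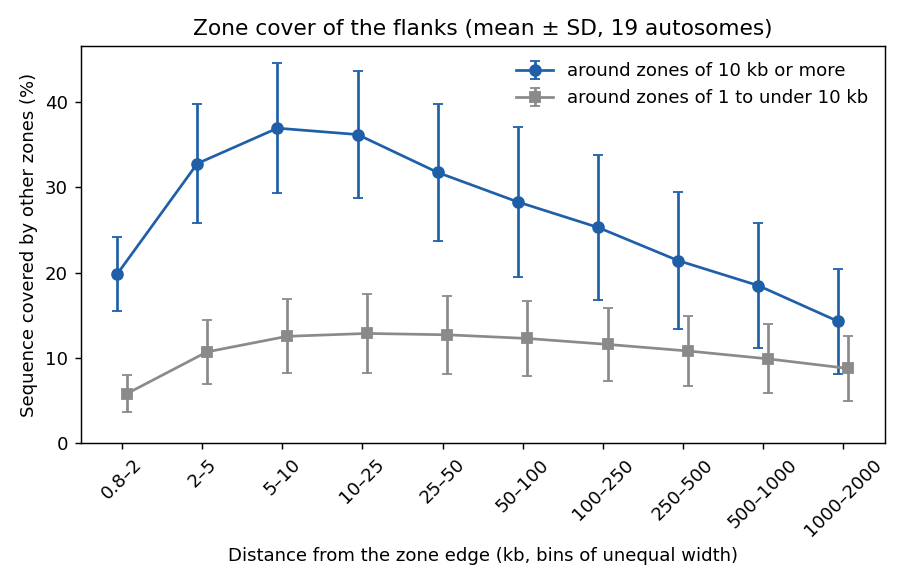
Share of flanking sequence covered by other zones (percent) against distance from the zone edge (kb, classes of unequal length), as mean and SD over 19 autosomes, for wide zones (blue) and comparison zones (grey). The curve of wide zones peaks at 37.0% between 5 and 10 kb and comes down to 14.3% at 1 to 2 Mb, and that of comparison zones stays between 5.79% and 12.9%.

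The width of the flanking zones was compared. A flanking zone can itself be one of the wide zones chosen by width, so this measure is not independent of the rule. Zones next to a wide zone had a median width of 5400 bp, and zones next to a comparison zone had a median of 2600 bp. On the log2 scale, the mean width of flanking zones was higher by 0.98 ± 0.23 (SD, n = 19), which is 1.97-fold, and higher on all 19 autosomes. The difference ran from 0.61 on chromosome 7 to 1.61 on chromosome 10. Against comparison zones of 5 to 10 kb only it was 0.44 ± 0.20, also on all 19. Neighbours narrower than 1000 bp were rare: they made up 1.48% of the zones flanking wide zones and 7.50% of those flanking comparison zones. Beside comparison zones of 5 to 10 kb only they made up 2.65%. Leaving out neighbours that were themselves wide, the flanking zones still had a median of 4200 bp against 2400 bp. For comparison zones of 5 to 10 kb only, that median was 3400 bp. The difference from all comparison zones was then 0.67 ± 0.15 (1.59-fold), again on all 19 autosomes.

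Within windows of 1 Mb the flanking zones of wide zones were 1.22-fold wider than those of comparison zones, by 0.28 ± 0.13 on the log2 scale, on all 19 autosomes. Against comparison zones of 5 to 10 kb only the difference within windows of 1 Mb was 0.12 ± 0.12, above 0 on 18 autosomes, and in windows of 500 kb it was 0.14 ± 0.12, above 0 on 17. It did not hold within windows of 250 kb, where the difference was -0.018 ± 0.11, above 0 on 10 autosomes and below on 9. In windows of any length a wide zone can flank the comparison zones but not itself. How far this moves the difference was not tested. With only neighbours under 10 kb counted, an alternative chosen after these values were seen, it was 0.17 ± 0.10 in windows of 250 kb and above 0 on all 19.

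Wide zones often followed one another directly. A wide zone was the immediate neighbour, on at least 1 side, of 1043 wide zones (40.04%) and of 3534 comparison zones (11.8%), with 13.2% among all autosomal zones. On both sides it was so for 171 wide zones (6.56%) and for 382 comparison zones (1.28%). Of comparison zones of 5 to 10 kb, 200 (3.55%) had a wide neighbour on both sides. Per autosome the share of zones with a wide neighbour was 39.7% ± 8.71 against 11.1% ± 5.25. The difference was 28.6 ± 9.74 percentage points, above 0 on all 19 autosomes, from 14.9 on chromosome 3 to 52.9 on chromosome 10. It was 16.3 ± 10.1 with a limit of 15 kb for wide zones, above 0 on 17 autosomes and below on 2. Against comparison zones of 5 to 10 kb only it was 16.5 ± 10.5, above 0 on 18 and below on 1.

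The nearest other wide zone was a median of 20000 bp away from a wide zone (quartiles 5200 and 74800 bp) and 478400 bp away from a comparison zone. It lay within 50 kb of 68.3% of wide zones, 21.1% of comparison zones and 23.4% of all autosomal zones. For comparison zones of 5 to 10 kb only, the median was 66200 bp and the share within 50 kb was 44.9%. The neighbours of wide zones were alike on both sides, with a median distance of 6600 bp toward lower and 6200 bp toward higher coordinates. The widths of the left and right neighbour of a wide zone were only weakly related across zones, with a Spearman's rho of 0.10.

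Runs of wide zones with no other zone between them were then listed. The 2605 wide zones formed 1562 single zones and 436 runs of 2 or more, of which 127 held 3 or more. Runs of 3 or more contained 425 wide zones (16.3%) and occurred on 18 of the 19 autosomes. The longest, of 7 wide zones, was at chr10:80661601-80837600. Its zones, of 10.4 to 56 kb, covered 94.5% of 176 kb, with gaps of at most 4.6 kb.

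The next had 6 wide zones each. The run at chr19:5651201-5762200 covered 92.3% of 111 kb, and the run at chr15:88889201-89022000 covered 69.4% of 132.8 kb, with a gap of up to 31.4 kb. Of the runs of 5, the most sequence was covered by those at chr19:7135801-7282000 (138.4 of 146.2 kb) and chr10:79514001-79653800 (127.4 of 139.8 kb). In 4 of these 5 runs more than 90% of the sequence lay inside zones, so they were close to continuous.

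At the scale of 1 Mb, wide zones were found in 560 of the 2385 autosomal windows that lay wholly inside a zone span (23.5%), whereas comparison zones were found in 94.7%. Windows with 5 or more wide zones were 8.89% of all windows and held 72.5% of the 2571 wide zones in these windows. The 238 windows with most comparison zones, 1 in 10 of all windows, held 57.0% of the wide zones and 28.2% of the comparison zones.

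Windows were also ordered by the number of their zones that were not wide. In the 636 windows with 1 to 5 such zones there were 3 wide zones, or 0.21% of the zones of at least 1000 bp. The share was 2.75% in windows with 11 to 20, 10.4% with 21 to 30 and 14.8% with 31 to 40. It was 15.5% in the 44 windows with more than 40, each of which had a wide zone. Wide zones made up 12.6% of the covered sequence in windows with 11 to 20 other zones and 40.1% in those with more than 40.

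The windows with most wide zones were neighbours on chromosome 10. The window at chr10:80000001-81000000 had 33 wide zones among 55, and zones covered 76.7% of it, 65.2% by wide zones alone. The window at chr10:79000001-80000000 had 26 among 61, with 76.2% covered. The others were chr17:27000001-28000000 with 22 wide zones, chr11:115000001-116000000 with 20 and chr8:122000001-123000000 with 20, where zones covered 61.3%, 50.6% and 52.7%. In the first of these windows wide zones outnumbered narrower ones, and in the other 4 they did not. The densest part of chromosome 10 thus stood out on a chromosome whose wide zone density, 0.91 per Mb, was below the autosomal mean.

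**Figure D4:**
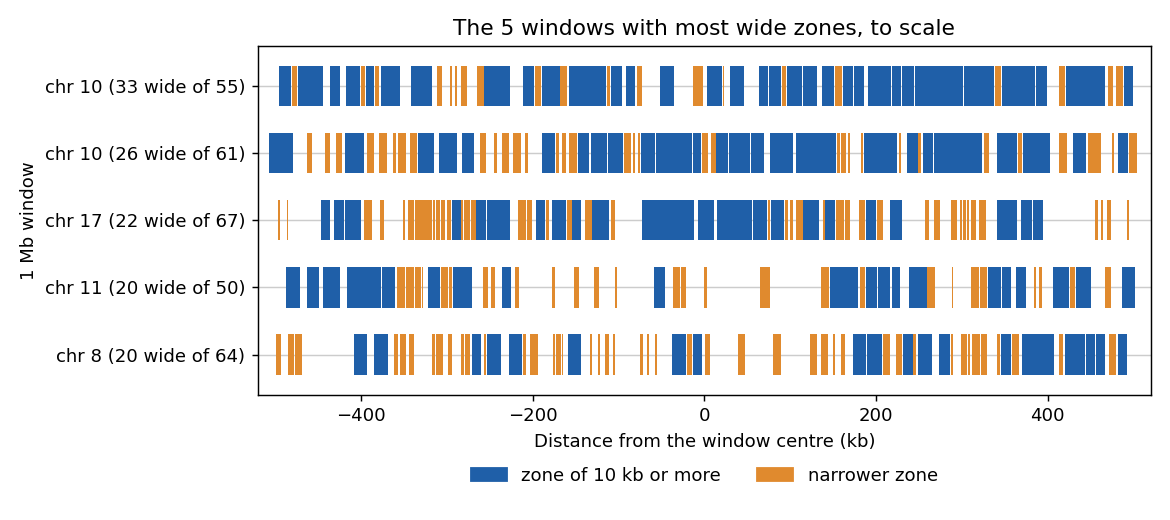
Zones in the 5 windows of 1 Mb with most wide zones, drawn to scale by distance from the window centre (kb), with zones of 10 kb or more in blue and narrower zones in orange. In the window with 33 wide zones of 55, on chromosome 10, zones cover 76.7% of the sequence, and in the windows on chromosomes 11 and 8 the wide zones stand in groups with sparser sequence between.

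Large parts of the autosomes had zones but no wide ones. Stretches were measured between consecutive wide zones only, so those reaching a chromosome end were left out. The longest stretch measured was at chr5:38560401-109074600. It measured 70.5 Mb and held 699 zones, of which the widest was 9.8 kb and the median 2000 bp. The next was chr3:31056801-86883200 (55.8 Mb), with 508 zones of at most 9.8 kb, and the third was chr16:35563001-91220000 (55.7 Mb), with 387 zones of at most 9 kb. Stretches of over 5 Mb between neighbouring wide zones numbered 81. They took up 55.6% of the autosomal span and held 11366 comparison zones, 38.1% of that class. By contrast the median distance between consecutive wide zones was only 57.9 kb.

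The wide zones with the sparsest surroundings were on 4 autosomes. The zone with fewest others was chr9:3015001-3033000 (18 kb), with 7 others within 500 kb and the next wide zone 17657.8 kb away. It lay near the low-coordinate end of the zones of its chromosome, which can limit the count on that side. The zone at chr13:72760401-72770400 (10000 bp) had 9 others, the nearest at 42.6 kb. The remaining 3 had 10 each: chr11:85634601-85661200 (26.6 kb), chr11:85720401-85733000 (12.6 kb) and chr17:37181801-37194000 (12.2 kb). The pair on chromosome 11 lay 59.2 kb apart. These zones were named for their low counts within 500 kb. That the whole group lay below the median comparison zone, which had 22, therefore says little about it.

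Position along the chromosome was compared last. Mouse autosomes have their centromere at the end with the lowest coordinates. The zone span of each autosome was cut into 10 parts of equal length. Wide zones were more frequent toward the end away from the centromere: part 10, with the highest coordinates, held 568 wide zones (21.8%) and part 1 held 130 (4.99%). For comparison zones these shares were 14.7% and 7.09%. Part 9 held 16.1% of wide and 14.1% of comparison zones. In parts 3 to 7 wide zones had the smaller share of their class in each case. The share of wide zones was larger in part 2 (9.94% against 9.28%) and in part 8 (11.8% against 10.3%).

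**Figure D5:**
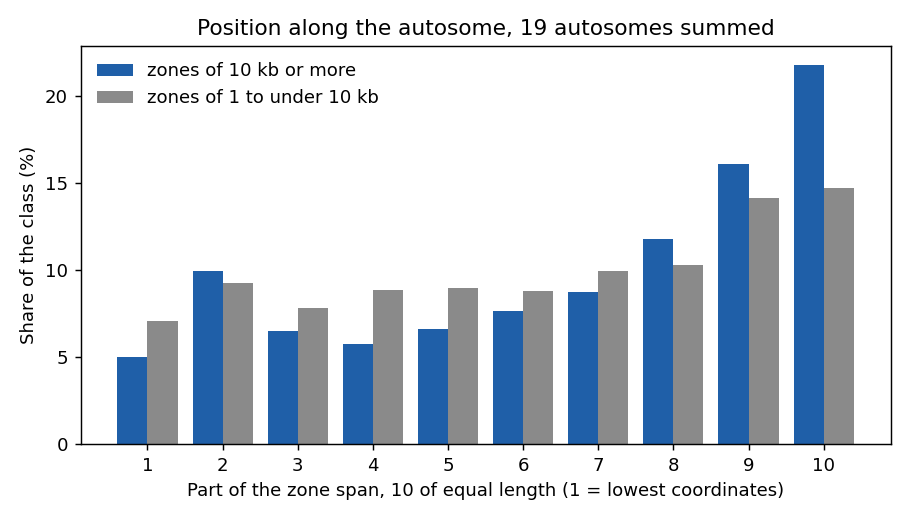
Share of each class of zones (percent) in each of 10 equal parts of the zone span, summed over 19 autosomes, from the lowest coordinates (1) to the highest (10), for wide zones (blue) and comparison zones (grey). Part 10 holds 21.8% of wide and 14.7% of comparison zones, and part 1 holds 4.99% and 7.09%.

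By fixed length, the last 10 Mb held 456 wide zones (17.5%, against 11.4% of comparison zones and 11.6% of all autosomal zones), and the first 10 Mb held 124 (4.76%). Comparison zones of 5 to 10 kb were close to this, with 15.6% in the last 10 Mb and 4.62% in the first. Density of wide zones was 2.40 ± 3.02 per Mb in the last 10 Mb, 0.65 ± 1.56 in the first and 1.00 ± 0.63 between (SD, n = 19). This density was higher in the last 10 Mb than between the ends on 10 autosomes and lower on 9. That of comparison zones was higher on 15 and lower on 4. As a share of zones of at least 1000 bp, wide zones were 8.77% ± 8.83 in the last 10 Mb and 3.44% ± 5.99 in the first. The difference was 5.34 ± 9.24 percentage points, above 0 on 14 autosomes, below on 2 and 0 on 3. Its spread over autosomes was larger than its mean. It was 3.06 with ends of 5 Mb, above 0 on 9 autosomes and below on 5. With a limit of 15 kb it was 2.79, and against comparison zones of 5 to 10 kb only it was 10.02. A share depends on how many zones each class holds, so the values with these other limits cannot be compared in size with 5.34.

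The ends differed widely between autosomes. The last 10 Mb of chromosome 11 held 107 wide zones, that of chromosome 4 held 73 and that of chromosome 8 held 71, and in each of these stretches wide zones were 19.8% to 28.1% of the zones of at least 1000 bp. The difference in share between the ends was largest on chromosome 4 at 19.8 percentage points, followed by chromosome 12 (17.2), chromosome 8 (13.7), chromosome 2 (13.4) and chromosome 11 (13.2). The last 10 Mb of chromosomes 3, 6 and 13 held none. On 10 autosomes the first 10 Mb held none. Chromosome 19 went the other way, with 66 wide zones in its first 10 Mb and 2 in its last, and so did chromosome 16, with 8 and 5. The share in the last 10 Mb minus that in the middle of the chromosome was 1.65 ± 8.08 percentage points, and the last 10 Mb was higher on 8 autosomes and lower on 11.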

How the data were processed

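Nascent strand libraries from 3 cultures of CGR8 cells were combined by the authors into 1 deposited list of zones, per the series' design text. Its values are zone starts and ends in bp; no score, read number or depth comes with them. CASAVA 1.8, SICER and build mm9 are named in the submitters' processing notes; the sources used here give neither their settings nor whether the controls entered the calls. All 35512 starts and widths were multiples of 200 bp, and autosomal zones were at least 800 bp apart.

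Widths count the end as part of the zone. Distances are between edges, windows take a zone by its midpoint, and the span of an autosome runs from its first to its last zone. Differences were computed per autosome and averaged with equal weight, and within windows holding both classes. No test was made, since the list is 1 sample. Functions were checked on simulated lists. The members, classes and rules were chosen with earlier results of these data known. Regions named by rule were the 10 widest zones, the widest of each autosome and the 5 longest runs. Also by rule were the 5 windows with most wide zones and the 5 wide zones with fewest zones within 500 kb. The 3 longest stretches between consecutive wide zones and the autosomes of extreme density were named by rule too. Other autosomes were named after their values were seen. Python 3.11.15, numpy 2.4.6, pandas 2.3.3, scipy 1.17.1 and matplotlib 3.10.9 were used.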

Additional observations from a re-analysis of the deposited data

How the results depend on the processing

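Of 73 alternatives over 8 results, 72 kept the direction, and 57 also moved the mean by less than 1 SD over the autosomes. Wide zones per Mb, 1 of these results, cannot fall below 0, so its alternatives kept the direction by construction. With a limit of 15 kb this density was 0.44 in place of 1.10 per Mb, still a move of less than its SD of 0.71. For the difference in share between the chromosome ends, the SD (9.24) was larger than the mean (5.34). There even a fall to 0 would count as a move of less than 1 SD, so the count of 57 says little about that result. The width difference of flanking zones within windows was 0.14 (log2) in windows of 500 kb and reversed to -0.018 in windows of 250 kb. The difference in zones within 250 kb inside windows was 1.02 and 0.66 zones there. Against comparison zones of 5 to 10 kb only, the differences were 12.8 percentage points (a zone within 10 kb), 3.35 zones (within 250 kb), 1.02 zones (same, inside windows), 0.44 and 0.12 log2 (flanking width, overall and inside windows) and 16.5 percentage points (a wide neighbour, above 0 on 18 autosomes). With zones under 2 kb apart joined, the differences in zones within 250 kb were 5.43 and, inside windows, 1.30. A limit of 15 kb gave 16.3 percentage points for a wide neighbour, above 0 on 17 autosomes. Counting within 100 and 500 kb gave 3.92 and 13.8 zones, and flanking zones under 10 kb alone gave 0.67 log2. Ends of 5 Mb gave a difference of 3.06 percentage points, above 0 on 9 autosomes and below on 5. Of the alternatives, 8 were chosen after values had been seen. No paired analysis was possible because 1 pooled file holds all cultures, and for the same reason no culture could be left out. A stricter calling threshold was not run, since the list has no score. Depth is unknown, so the width of a zone at another depth cannot be bounded.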
